A study of Rattus norvegicus with 4 samples.

Results

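Apln encodes apelin, a secreted peptide, and Aplnr encodes the apelin receptor, a G protein-coupled receptor. Both were examined as a ligand and receptor pair in the hypothalamus of rats given triiodothyronine (T3, the active thyroid hormone). Probes were chosen by matching the accession printed on the array to RefSeq, which gave 2 probes for Apln (both NM_031612) and 1 for Aplnr (NM_031349) among 41012 probes. They are 2 of the 13440 genes that could be named on the array. All 3 were well above background in every rat. No probe was matched to Apela, the gene of the receptor's other peptide ligand. The pair was taken up because Apln had already been seen to be higher after T3 on these arrays, so its T3 ratio is given as a description and without a test.

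Apelin is made as a longer precursor that is cut to short C-terminal peptides. Its receptor couples mainly to inhibitory G proteins and recruits beta-arrestins. In the hypothalamus apelin is known from magnocellular neurons that also make vasopressin, where it opposes vasopressin release. In blood vessels it is known from sprouting endothelial cells, and its transcription is known to rise in low oxygen.

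The study used 8 male Sprague Dawley rats, 7 weeks old at the outset and 10 weeks old at collection. All of them, controls included, were hypothyroid from 0.025% methimazole (an inhibitor of thyroid hormone synthesis) in drinking water over 22 days. On day 21, 4 rats were injected with T3 at 25 µg per 100 g and the other 4 with saline, and tissue blocks from bregma -2.12 to -4.52 mm were collected 24 hours afterwards. Each of 4 two-colour arrays held 1 T3 rat and 1 saline rat, and the T3 rat carried the Cy5 dye on arrays 1 and 3 but Cy3 on the other pair. There were no rats with normal thyroid function, so a T3 ratio compares replaced with hypothyroid rats.

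Between 49.8% and 67.3% of probes were well above background, depending on the rat. Of 13 markers of hypothalamic neurons 12 were measured, among them Pmch and Hcrt of the lateral hypothalamus and Agrp and Pomc of the arcuate nucleus. Rats differed in what else the blocks held. The median log2 T3 over saline of 3 red blood cell genes was 1.35, -3.25, 0.34 and 0.97 on arrays 1 to 4. For 5 choroid plexus genes it was 0.10, -0.38, 0.51 and -0.13. Ttr, the choroid plexus transthyretin gene, chosen after its values were seen, stood at 3.53 on array 3 and at -0.36 to 0.45 on the others. The other measured choroid plexus genes were at 2.70 (Sostdc1), 0.51 (Aqp1), 0.30 (Folr1) and -0.29 (Calml4) on array 3.

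A stretch of the region before the Apln start is shown because thyroid hormone receptors bind DNA at half-sites of the form AGGTCA. In the 250 bases before the RefSeq start (GRCr8), searched on both strands, AGGTCA had 0 matches, and so had its direct repeat with 4 bases between the copies. The shorter core GGTCA had 2 matches, both on the strand opposite to the gene. They form a direct repeat with 3 bases between the copies, a spacing searched for after the sequence was seen. Those bases are counted between the shorter cores, so this spacing is not on the same count as that of AGGTCA. The stretch lies at chrX:132091306-132091335 on the minus strand, 89 to 60 bases before the start, and capitals mark the matches as read on the gene's strand.
Apln: gcctcctaaTGACCacaTGACCaagtgggc
Of 33469 promoters of the same length, 14.1% held AGGTCA, 35.4% held GGTCA at least once, 8.37% held it 2 or more times, and 23 (0.0687%) held that direct repeat of GGTCA. The hypoxia core ACGTG, present in 16.6% of promoters, had 0 matches. A match describes letters and not a bound site, the array data do not bear on binding, and the RefSeq record of the gene reaches past this window, so another transcript may start further upstream. Aplnr is named only.

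Apln, the ligand, was higher in the T3 rat than in the saline rat on every array and by both probes, in the processed signals and in the loess ratios. With median centring in place of loess the dimmer probe was at -0.08 on array 2 and -0.20 on array 4, and the authors' deposited table has the brighter probe at -0.23 on array 3. The scanner software's processed signal, background-subtracted and dye-normalized, is given first. At the brighter Apln probe it was 11913.4, 10041.6, 11142 and 11188 in the T3 rats of arrays 1 to 4. In the saline rats of the same arrays it was 6604.5, 5675.3, 6319.1 and 6026. The groups did not overlap, and the lowest T3 rat stood well above the highest saline rat.

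At the dimmer Apln probe the processed signal was 7516, 8155.8, 8333.2 and 7540.3 in the T3 rats. It was 5293.1, 5140.2, 4625.1 and 4910.7 in the saline rats, again with no overlap. Among all 23190 probes tested, 207 (0.893%) had T3 and saline signals that did not overlap with T3 higher. Since Apln was chosen for its ratio, nothing is read from that share.

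**Figure D1:**
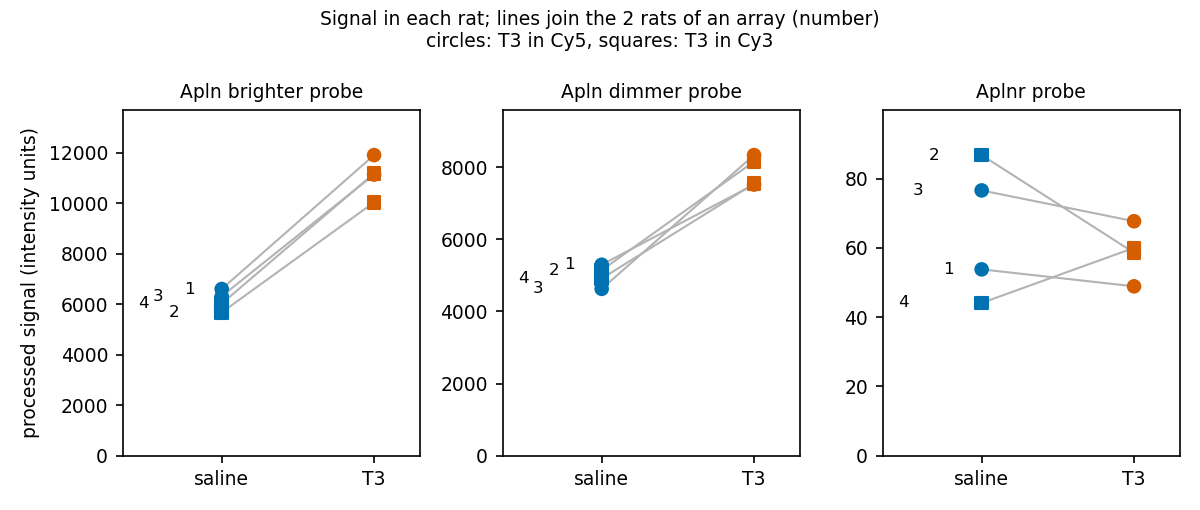
Processed signal (intensity units, axis from 0) of the 2 Apln probes and the Aplnr probe in each rat. Points are rats, lines join the saline and the T3 rat of an array (numbered), and marker shape gives the dye of T3. All T3 rats lie above all saline rats for both Apln probes (10041.6 to 11913.4 against 5675.3 to 6604.5 for the brighter one), while the Aplnr groups overlap.

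Log2 ratios were then taken from the median spot signals after background correction and loess normalization of each array. The brighter Apln probe gave 0.84, 0.85, 0.74 and 0.89 on arrays 1 to 4. Their mean was 0.83 ± 0.06 (SD, n = 4 arrays), a 1.78-fold higher signal after T3. This SD lay at the 6.78th percentile of the 22634 probes with a value on all arrays, whose median SD was 0.16. Since Apln was chosen by this contrast, nothing is read from that percentile. With median centring in place of loess the SD of this probe was 0.79, and in the authors' deposited table it was 1.00.

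The dimmer Apln probe gave 0.58, 0.55, 0.90 and 0.59, with a mean of 0.66 ± 0.16 (SD, n = 4), or 1.58-fold. Array 3 was highest here and lowest at the brighter probe. The brighter probe exceeded the dimmer one by 0.26, 0.29 and 0.30 on arrays 1, 2 and 4 and was below it by a difference of -0.16 on array 3. The mean difference between the probes was 0.17 ± 0.22 (SD, n = 4). With the processed signals it was 0.19 ± 0.16. For the loess ratios without array 3 the mean was 0.29. Whether the difference lies within the spread between arrays therefore depends on the signal used and on array 3.

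In order of mean ratio the brighter probe was number 34 and the dimmer one number 70 among the 23190 tested probes. This is the contrast by which the gene was chosen, so the order is a description. In bulk tissue, more cells that express Apln and more Apln RNA per cell cannot be told apart.

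Both Apln probes were among the bright ones on the array. Their median signals ranked number 1406 and number 2363 of 41012 probes, at the 96.6th and 94.2nd percentile. The signal was 116 to 306 times the local background at the brighter probe and 61.5 to 170 times at the dimmer one, and no Apln spot was saturated or marked as an outlier. Brightness depends on the probe as well as on the RNA, so it gives no order of levels between genes.

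**Figure D2:**
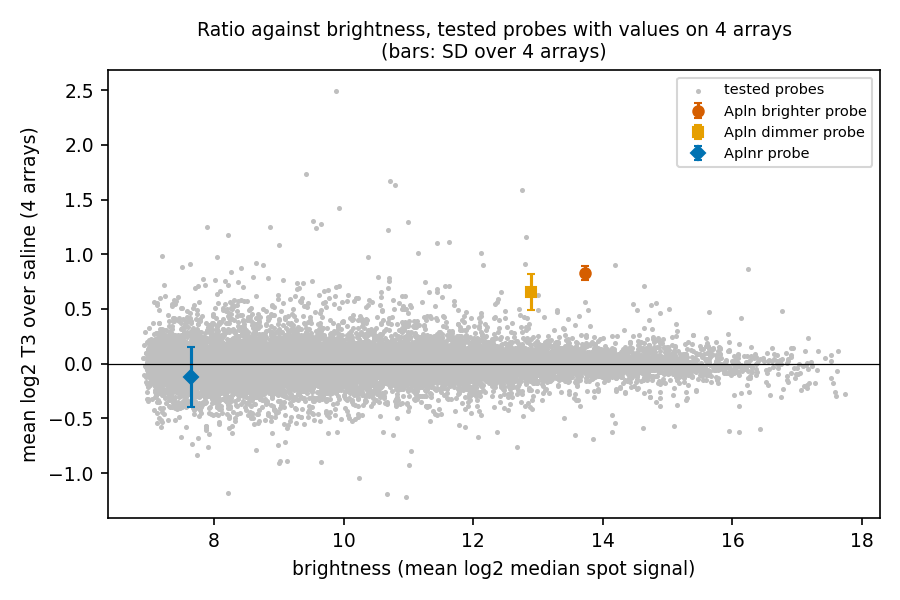
Mean log2 T3 over saline (vertical) against brightness, the mean log2 of the median spot signals (horizontal). Grey points are the 22634 tested probes with values on all arrays, and coloured markers with SD bars (n = 4) are the Apln and Aplnr probes. The Apln probes lie at 0.83 and 0.66 in the bright part of the range, and the Aplnr probe lies at -0.12 near its dim end.

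The receptor gene Aplnr showed no such separation. Its processed signal was 48.9, 58.6, 67.7 and 60 in the T3 rats and 53.8, 86.8, 76.6 and 44.1 in the saline rats. The ranges overlapped throughout, and the saline rats spread more widely (SD 19.8 against 7.72).

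The log2 ratios of Aplnr were -0.21, -0.42, -0.09 and 0.23 on arrays 1 to 4, so that 3 arrays were lower and array 4 was higher. Their mean was -0.12 ± 0.27 (SD, n = 4), smaller than the spread. The Aplnr probe ranked number 19045 in brightness, at the 53.6th percentile, and its signal was 2.22 to 3.51 times the background. A signal so near background limits the precision, and the Aplnr value does not show that the receptor was unchanged.

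Dye orientation was balanced, and a dye effect can be tested apart from the T3 ratio. In a limma fit with a dye term, the log2 Cy5 over Cy3 coefficient was -0.04 for the brighter Apln probe (limma adjusted p = 0.75), 0.08 for the dimmer one (0.59) and -0.03 for Aplnr (0.92). With T3 in Cy5 the mean ratio of the brighter probe was 0.79, and with T3 in Cy3 it was 0.87. For the dimmer probe these means were 0.74 and 0.57. Over all 22634 probes of this fit 0 were called for the dye (0% by limma at an adjusted p under 0.05), while 3869 had an unadjusted p under 0.05. With median centring of each array in place of loess, 66.7% were called for the dye.

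The authors' deposited table of log ratios, read as log2 of T3 over saline, gave nearly the same Apln mean and a different value on each array. For the brighter probe the authors' deposited table listed 0.19, 1.32, -0.23 and 1.95 for arrays 1 to 4, with a mean of 0.81. For the dimmer probe the authors' deposited table listed 0.10, 1.22, 0.16 and 1.21, with a mean of 0.67. In it the arrays with T3 in Cy3 were high for both probes and those with T3 in Cy5 were near 0, which neither the scanner files' loess ratios nor their processed signals show.

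Aplnr in the authors' deposited table was at -0.02, 0.38, -0.38 and 0.28, with a mean of 0.06, against -0.12 from the scanner files. Its sign therefore depends on the source. Over 22634 probes, Pearson r between a column of the authors' deposited table and the scanner ratios of the same array was 0.43, 0.42, 0.19 and 0.28, a description across probes that are not independent. Columns 3 and 4 of the authors' deposited table correlated at -0.51, where the scanner ratios of these arrays correlated at 0.05. The spike-in controls of the table change sign with the dye orientation, which is why it was read as T3 over saline on every array. Which log base, normalization and centring the table has is not given in the sources used here.

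**Figure D3:**
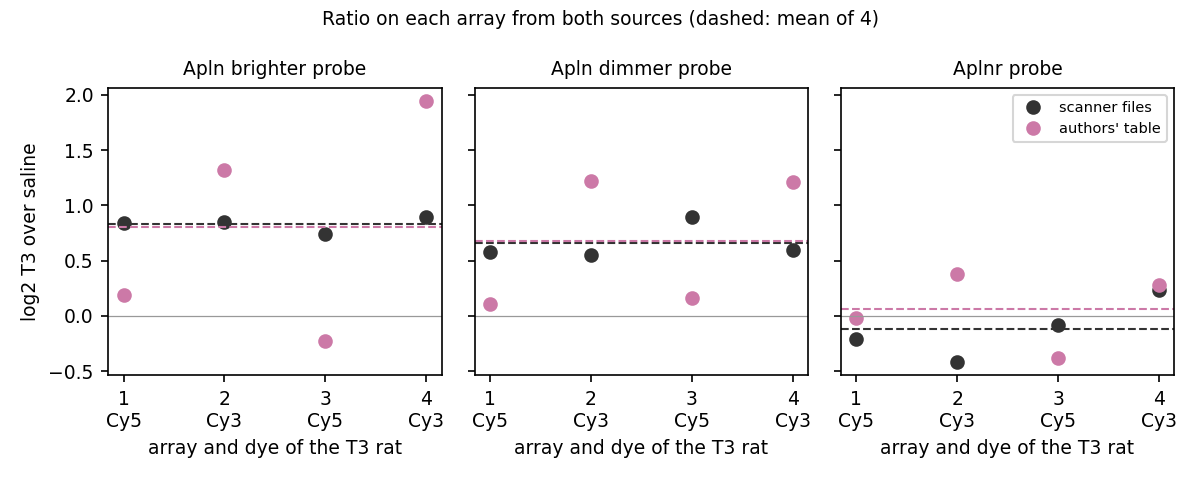
Log2 T3 over saline (vertical) on each array (horizontal, with the dye of the T3 rat) for the 3 probes, from the scanner files and from the authors' deposited table. Dashed lines are means of the 4 arrays. The means of the brighter Apln probe nearly coincide (0.83 and 0.81), while the table's points run from -0.23 to 1.95 and the scanner files' from 0.74 to 0.89.

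Genes that cut the apelin precursor or break down the peptides did not pass the test. Of 10 such genes 7 were measured, 4 with a higher and 3 with a lower mean, 0 past the threshold and 0 at an unadjusted p under 0.05 (limma). Over all tested probes limma called 22 higher (0.0949%) and 1 lower (0.00431%) at an adjusted p under 0.05, counts that depend on the processing. The median log2 ratio of the 7 genes was 0.08, against 0.0042 over all 9304 genes measured, of which 51.9% had a higher mean.

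Among the convertases, Furin, which cuts the apelin precursor, was at 0.09 ± 0.24. Pcsk7 was at 0.15 ± 0.02 and above 0 on all 4 arrays (limma adjusted p = 0.63), a sign pattern found in 8.11% of probes. Pcsk1 and Pcsk2, convertases of neuroendocrine granules, were at -0.13 ± 0.22 and -0.11 ± 0.17. With the authors' deposited table Furin was at 0.05, Pcsk7 at 0.0095, Pcsk1 at -0.11 and Pcsk2 at 0.12. Among the peptidases, Mme (neprilysin) was at 0.19 ± 0.33, Prcp at -0.16 ± 0.20 and Ece1 at 0.08 ± 0.10. Other probes of Prcp and Ece1 gave -0.03 and -0.06. Klkb1 was not well above background, and Pcsk5 had no matched probe.

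Genes of receptor coupling and trafficking lay close to 0. Of 17 listed genes 16 were measured, 12 with a higher and 4 with a lower mean, and 0 passed the threshold or an unadjusted p under 0.05 (limma). The median was 0.05, and the values ran from -0.17 to 0.17. Gnai2, an inhibitory G protein subunit, was at -0.17 ± 0.13 and below 0 on all 4 arrays (limma adjusted p = 0.63), as were 8.07% of probes. Arrb2, a beta-arrestin, was at 0.17 ± 0.13 (limma adjusted p = 0.65).

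Relatives and reported partners of the apelin receptor were measured for 4 of 9 genes, all with a higher mean (median 0.21), and 0 passed the threshold by limma. Ackr3, a scavenger receptor of chemokines, was at 0.43 ± 0.29 (limma adjusted p = 0.31). Agtr1a, the angiotensin II receptor to which the apelin receptor is related in sequence, was at 0.37 ± 0.25 (limma adjusted p = 0.33). Both were above 0 on all 4 arrays and were the 2 members at an unadjusted p under 0.05, a level reached by 8.12% of tested probes.

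Avp, the vasopressin precursor gene, could not be resolved. Its log2 ratios were 1.17, -0.18, -2.63 and -0.72 on arrays 1 to 4 (mean -0.59 ± 1.57, limma adjusted p = 0.87). On the same arrays the brighter Apln probe was between 0.74 and 0.89 with loess. With median centring it was at 1.37, 0.17, 1.55 and 0.04. The part of magnocellular neuron content in the Apln ratio was not tested. Avpr1a, a vasopressin receptor gene, was at 0.04 ± 0.13 (limma adjusted p = 0.97). Of the 7 genes of the vasopressin and oxytocin system 3 were measured, with a median of -0.22 and 0 past the threshold or at an unadjusted p under 0.05 (limma). That median was -0.89 without array 1 and 0.088 without array 3, so 1 array decides its sign.

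Hypoxia-responsive genes, a group that Apln belongs to by its known regulation, went both ways. Of 18 genes 17 were measured, 8 with a higher and 9 with a lower mean, at a median of -0.01. By limma 0 passed the threshold and 5 were at an unadjusted p under 0.05, against 8.12% of all probes. These 5, Vegfa, Adm, P4ha1, Hif1a and Epas1, were above 0 on all 4 arrays. Vegfa, the endothelial growth factor gene, was at 0.28 ± 0.07 (limma adjusted p = 0.26), and its other probe at 0.15. Adm, which encodes the vasodilator peptide adrenomedullin, was at 0.53 ± 0.37 (limma adjusted p = 0.28), ranging from 0.14 on array 2 to 0.95 on array 1. With the authors' deposited table Vegfa was at 0.013 and Adm at 0.64.

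Endothelial tip cell genes, which include Apln by its known expression in sprouting vessels, had mostly higher means without any passing. Of 15 genes 10 were measured, 8 with a higher and 2 with a lower mean, at a median of 0.17, where 51.9% of all genes had a higher mean. By limma 0 passed the threshold and 5 were at an unadjusted p under 0.05, against 8.12% of all probes. Of these 5, Adm, Nid2 (0.38), Angpt2 (0.49, with other probes at 0.40 and 0.20) and Kdr (0.32) had a higher mean. Esm1 had a lower one. The 2 with the smallest p went opposite ways. Esm1 was at -0.34 ± 0.16 (limma adjusted p = 0.27), with another probe at -0.08, and Adm was at the 0.53 given above. With the authors' deposited table Esm1 was at -0.0056 and Adm at 0.64.

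**Figure D4:**
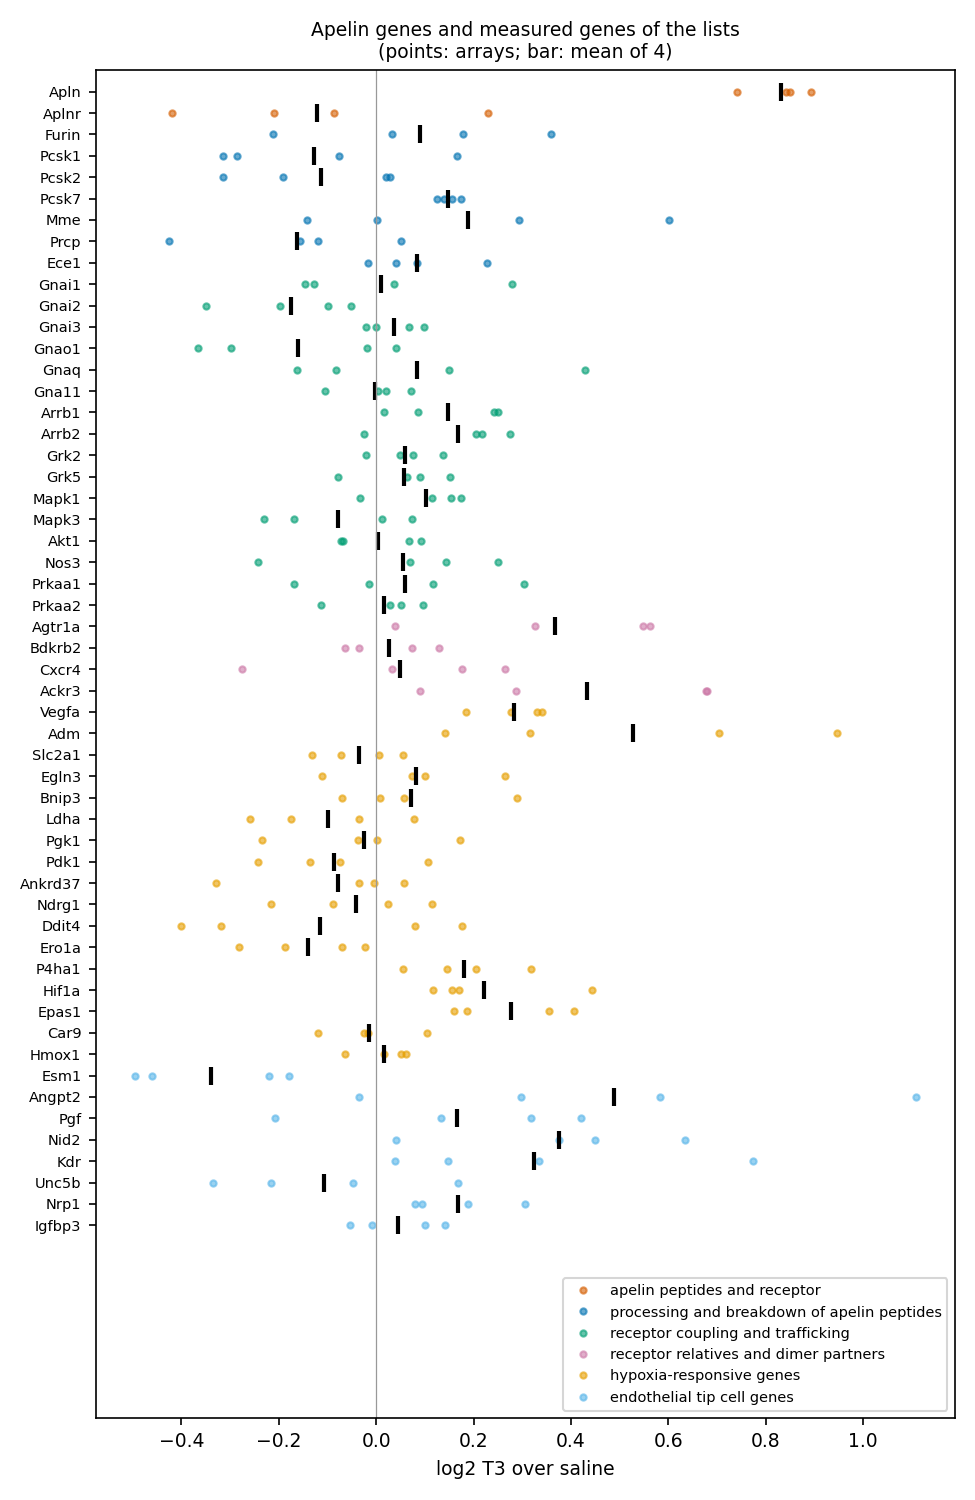
Log2 T3 over saline (horizontal) of Apln (brighter probe), Aplnr and the measured genes of the lists, with a point for each array and a bar at the mean. Colours give the lists, and the vasopressin and oxytocin genes are not drawn. The Apln points lie between 0.74 and 0.89 with a mean of 0.83, and the highest mean among the other genes shown is that of Adm at 0.53. Single points of Angpt2 (1.11) and Adm (0.95), both on array 1, lie to the right of the Apln points. Apln was chosen for its ratio, so its place is a description.

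Markers of the cells that could carry Apln are given beside it. The 11 measured of 15 endothelial markers had a median log2 ratio of -0.02, 5 with a higher and 6 with a lower mean. Their summed processed signal was 12140.3 to 14026.8 in the T3 rats and 13113.5 to 17689.3 in the saline rats. The 9 measured of 10 mural markers had a median of -0.01 and overlapping sums. The lowest mean in the endothelial list was -0.37 (Cldn5, a tight junction claudin, below 0 on all 4 arrays, as were 8.07% of probes). The highest was 0.34 (Tie1, an endothelial receptor kinase, with another probe at 0.03). Tie1 and Emcn, the latter at 0.26, were above 0 on all 4 arrays, a pattern found in 8.11% of probes. In the mural list means ran from -0.27 (Cspg4) to 0.12 (Pdgfrb). Of both lists 0 members passed the threshold. At an unadjusted p under 0.05 (limma) were 3 endothelial markers, Cldn5, Tie1 and Emcn, and 0 mural ones, against 8.12% of tested probes.

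The 7 measured of 8 neuronal markers had a median of 0.02 and sums of 78740.4 to 128212 in T3 and 76565.9 to 128203 in saline rats. The 12 hypothalamic neuron markers had a median of -0.14, and 10 had a lower mean. Without array 3 that median was -0.06, and with the authors' deposited table it was 0.12, of opposite sign. Of the hypothalamic neuron markers 0 passed the threshold and 3 were at an unadjusted p under 0.05 (limma), against 8.12% of tested probes. They were Hcrt at -0.24, Hdc at -0.31 and Cartpt at -0.23, each below 0 on all 4 arrays, as were 8.07% of probes. The 8 astrocyte markers had a median of -0.15, and their sums, 78589 to 95471.7 in T3 and 98060.9 to 105570 in saline rats, did not overlap. Among single probes 138 (0.595%) had signals that did not overlap with T3 lower. That share does not apply to a sum over 8 genes, in which the brightest members weigh most. The astrocyte median was -0.02 without array 2 and 0.0089 with the authors' deposited table. Of the astrocyte markers 0 passed the threshold and 3 were at an unadjusted p under 0.05 (limma), against 8.12% of tested probes. These were Gja1 at -0.62, Slc1a2 at 0.34 and Fgfr3 at 0.34. The part of cell composition in the Apln ratio was not tested. On the array that stood apart in blood genes, array 2, the brighter Apln probe was at 0.85. On array 3, which stood apart in Ttr and Sostdc1 among the choroid plexus genes, the brighter Apln probe was at 0.74. Its mean was 0.82 without array 2 and 0.86 without array 3. The dimmer probe was highest on array 3, at 0.90, and its mean without that array was 0.58.

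The 6 genes whose ratios lay nearest to those of the brighter Apln probe were named by the root mean square difference over the 4 arrays, among 9048 genes. Nearest was Acsl6, which activates long-chain fatty acids, at a difference of 0.14, with ratios of 0.82, 0.81, 0.91 and 1.11 on arrays 1 to 4. The others were Tnxa-ps1, a tenascin X pseudogene whose probe may also bind its parent gene (0.20), Slc25a33, a mitochondrial carrier (0.20), Eva1b (0.21), Stat5a, a transcription factor of cytokine signalling (0.22), and Hcn2, a pacemaker channel subunit (0.22). Slc25a33, Eva1b, Stat5a and Hcn2 were lowest on array 2, at 0.49, 0.50, 0.42 and 0.47, where Apln stood at 0.85. With 4 arrays this likeness mostly means a similar mean ratio. It depends on the source, since 4 of the 6 genes recur with median centring and 1 with the authors' deposited table.

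**Figure D5:**
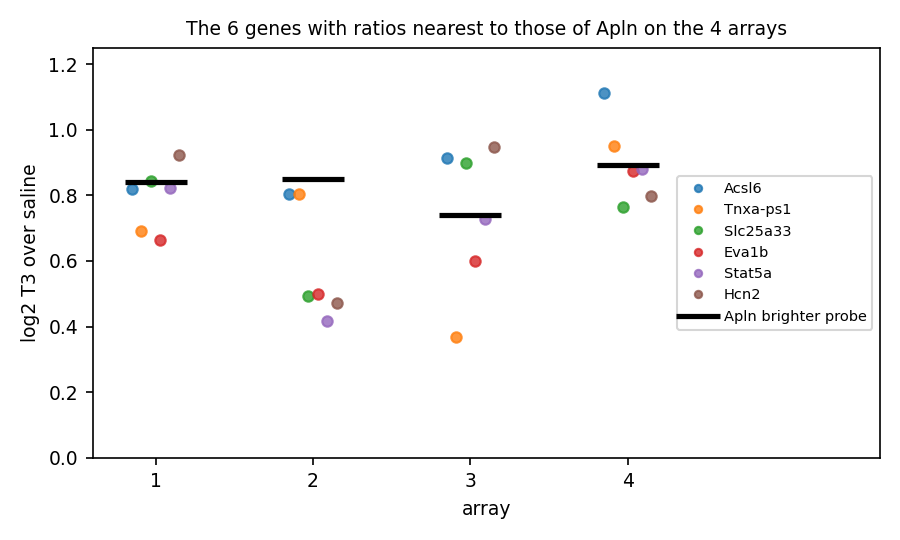
Log2 T3 over saline (vertical) on arrays 1 to 4 (horizontal) for the brighter Apln probe (black bars) and the 6 nearest genes (coloured points, set side by side). On array 2, 4 of the 6 lie between 0.42 and 0.50, below Apln at 0.85.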

How the data were processed

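Per the file headers, Agilent Feature Extraction 10.7.3.1 made the deposited scanner output, which gives each spot's median signal, its local background and a processed signal as intensity. A log10 ratio of the processed signals is also in the files as deposited and was not used. The authors' deposited table of 41105 rows was read as log2 ratios; the submitters' processing notes name limma 3.18.9. Its column medians were 0.0026, -0.0024, 0.0021 and 0.0030.

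Median signals were background-corrected with normexp (offset 50) and loess-normalized within arrays in limma 3.58.1 under R 4.3.3, with control spots at weight 0. Outlier spots were left out, and ratios were turned to T3 over saline. Probes well above background on at least 3 of 4 arrays in either treatment were tested (23190), of which 556 lacked a value on some array. Accessions were matched without versions to RefSeq (GRCr8, names only): 16964 probes had 1 symbol and 24048 had none. For genes with several kept probes the brightest was used.

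Differences were tested with limma (lmFit, eBayes, 2-sided), Benjamini-Hochberg adjusted over all tested probes at 0.05, and checked on simulated data. The number of arrays limits the precision. The labels name separate rats but not which rat is on which array, so each array was taken as 1 pair. Members and lists were chosen with earlier results of these data known. Named were both members with every probe, the 6 genes nearest to Apln, all measured processing and breakdown genes, and from each other pathway list up to 4 members past the threshold or else the 2 with the smallest p. Cell marker genes, P4ha1, Hif1a, Epas1, Nid2, Angpt2 and Kdr were named after their values were seen. One listed gene is not reported here.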

Additional observations from a re-analysis of the deposited data

Results flagged for a closer look

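The dimmer Apln probe had 1 array far from the other 3. Its log2 T3 over saline was 0.90 on array 3, against 0.55 to 0.59 on the others, and the gap to the nearest array was 0.884 of the whole range, above Dixon's 95% critical value for 4 samples. The processed signals gave 0.85 for that probe on array 3, against 0.51 to 0.67 on the others. At the brighter probe array 3 was the lowest, at 0.74. This was 1 of 35 sets of 4 values examined, and chance gives about 1 in 20. Without array 3 the mean of the dimmer probe was 0.58. The cause was not tested.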

How the results depend on the processing

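The means of both Apln probes kept their direction in all alternatives. Over the 8 other settings the mean log2 T3 over saline ran from 0.78 to 0.85 at the brighter probe. At the dimmer probe it ran from 0.60 to 0.67. Of these settings, quantile normalization of brightness between arrays and keeping outlier spots could not change the ratios of the Apln and Aplnr probes, which had 0 outlier spots. Leaving out an array in turn gave 0.81 to 0.86 at the brighter and 0.58 to 0.69 at the dimmer probe. Under every other setting the Apln means moved by less than their SD over arrays. Leaving out 1 of 4 arrays cannot move a mean by as much as that SD, so nothing is read from the size of those moves. The probe difference ran from 0.13 to 0.19 over settings and from 0.13 to 0.29 with an array left out, highest without array 3. Aplnr ran from -0.15 to 0.06, above 0 with the authors' table alone, and from -0.24 (without array 4) to -0.02 (without array 2) with an array left out. The number of probes past the threshold moved from 23 to 14 with a normexp offset of 16, to 10 with the authors' table, to 67 with no filter on dim probes, and to 0 with Agilent's processed signals, median centring or eBayes with trend and robust (1948, 131 and 1150 at an unadjusted p under 0.05). With an array left out it ran from 0 to 68: 0 without array 1, 3 or 4 (1403, 1383 and 1577 at an unadjusted p under 0.05) and 68 without array 2. With median centring in place of loess, the dye coefficient turned to 0.68 for the brighter Apln probe and to 0.041 for Aplnr, and rose to 0.75 for the dimmer Apln probe (limma adjusted p = 0.00038, 0.78 and 0.00053), while 66.7% of probes were called for the dye. The ratios were then 1.37, 0.17, 1.55 and 0.04 on arrays 1 to 4 at the brighter Apln probe and 1.05, -0.08, 1.65 and -0.20 at the dimmer one. The cause of the other moves was not tested. Of the list medians under other settings 74 moved by less than their SD over arrays and 4 by more. Where the arrays spread widely this measure also passes changes of sign. The blood median of -0.21 counts among the 74 although it was 0.90 without array 2 and 0.46 with the authors' table. All 4 arrays lay on 1 slide, and a low signal over background limits Aplnr.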
